A study of Mus musculus with 8 samples.

Results

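The serpin family of protease inhibitors was followed at the level of messenger RNA across 8 arrays of mouse liver. Its members are all probe sets whose gene symbol in the array's annotation is single and begins with Serpin: 39 probe sets for 30 genes, of 22626 probe sets on the array that are not controls. Clades A, C, D and F, which hold the serpins that hepatocytes secrete into plasma, had 15 probe sets for 12 genes. The other clades had 24 probe sets for 18 genes, namely 14 genes of clade B and Serping1, Serpinh1, Serpini1 and Serpini2.

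Every mouse had a C57B6 background, was 8 months old and had been fed Western diet for 12 weeks. At the age of 10 weeks each had been given an adeno-associated virus (AAV2.8) in which the human thyroxine binding globulin promoter, active in liver, drove either GFP as the control or human LXRα. LXRα is an oxysterol receptor of the nuclear receptor family, and no label names a deletion of the mouse's own LXR genes. For 3 days the mice then had intraperitoneal injections of vehicle or of T0901317 at 5 mg/kg, a synthetic agonist of LXR with known activity on the pregnane X receptor too. Crossing virus and injection made 4 groups of 2 arrays: GFP vehicle, LXRα vehicle, GFP T0901317 and LXRα T0901317. The labels describe each array as liver of 1 mouse but do not say that the arrays of a group came from separate mice, so p-values measure only the spread between these samples, which may be technical.

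A serpin works as bait. The target protease cuts its exposed reactive loop, the serpin snaps into a more stable fold, and the protease is trapped and distorted on it. Liver makes most of the plasma serpins: antithrombin (Serpinc1) and heparin cofactor II (Serpind1) stop thrombin, α1-antitrypsin (the Serpina1 genes) stops neutrophil elastase, and α2-antiplasmin (Serpinf2) stops plasmin. Some members carry hormones or fold collagen in place of inhibiting a protease, and most clade B serpins stay inside cells and block proteases such as cathepsins and granzymes.

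Several arrays stood apart. GFP vehicle replicate 2 carried transcripts of pancreatic acinar cells: the summed intensity of the 4 acinar markers measured was 24309 there against 96.3 to 201 on the other arrays, and Cela2a alone, a pancreatic elastase, read 11030 there. The β-actin control probe sets compare the 3′ end of that transcript with its 5′ end, and their ratio goes up as RNA loses 5′ sequence. It was between 2.08 and 3.08 in vehicle livers and 2.75 on LXRα T0901317 replicate 1. GFP T0901317 livers had 7.56 and 11.04, and LXRα T0901317 replicate 2 had 36.3, so high ratios and T0901317 largely coincided. The control probe set for 18S ribosomal RNA split fully by treatment. It read 262 to 513 on the vehicle arrays, 39.5 and 13.4 on the GFP T0901317 arrays, and 76.3 and 15.2 on the LXRα T0901317 arrays. LXRα T0901317 replicate 1, low in its β-actin ratio, was thus apart from vehicle livers by this control. Its part in the T0901317 differences was not tested. Macrophage markers (14 measured) were lowest on LXRα vehicle replicate 2, with a median 1.58 log2 units below their 8-array means and a summed intensity of 4336 against 10271 to 17629 elsewhere. The labelled tissue was borne out by 11 hepatocyte markers, whose summed intensity was 95510 to 118054, with Alb, the albumin gene, at 19677 to 31022. Intensities are the authors' deposited values on a linear scale, array medians were 21.0 to 23.2, and 2 arrays per group limit the precision of every value. In whole liver, fewer cells of a type and less RNA per cell cannot be told apart.

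Promoters of 5 secreted serpins are shown first, because they set apart the near-identical Serpina1 copies, the neighbouring clade F genes and the member with the smallest p-values. They are the 250 bases before the start site, 5′ to 3′ in the direction of the gene, from RefSeq on build GRCm38.p6; 26 of the 30 genes had an entry (10 in clades A, C, D and F and 16 in the others). Serpind1 lies at chr16:17331121-17331370 on the plus strand and the rest on the minus strand, Serpina1b at chr12:103738190-103738439, Serpina1c at chr12:103904951-103905200, Serpinf1 at chr11:75422624-75422873 and Serpinf2 at chr11:75439502-75439751. The capitals mark GTTAAT, the core letters read by the liver factor HNF1, in the Serpina1 genes, and AGGTCA on either strand, the hexamer read by many nuclear receptors, in the clade F genes. Serpind1 has no capitals because neither was marked in it.
Serpind1: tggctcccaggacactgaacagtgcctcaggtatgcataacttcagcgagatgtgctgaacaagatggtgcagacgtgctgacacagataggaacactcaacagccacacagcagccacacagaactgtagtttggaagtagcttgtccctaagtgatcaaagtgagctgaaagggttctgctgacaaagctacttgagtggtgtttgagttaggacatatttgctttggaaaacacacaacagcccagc
Serpina1b: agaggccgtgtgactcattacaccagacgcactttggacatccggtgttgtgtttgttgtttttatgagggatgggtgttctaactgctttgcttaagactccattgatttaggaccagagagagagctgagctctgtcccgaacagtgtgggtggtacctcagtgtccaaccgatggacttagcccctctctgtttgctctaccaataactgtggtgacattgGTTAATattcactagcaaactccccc
Serpina1c: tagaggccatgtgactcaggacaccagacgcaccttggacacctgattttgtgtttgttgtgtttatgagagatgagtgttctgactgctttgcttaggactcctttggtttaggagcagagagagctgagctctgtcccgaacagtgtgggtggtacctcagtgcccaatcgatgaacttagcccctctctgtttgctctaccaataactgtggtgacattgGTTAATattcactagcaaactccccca
Serpinf1: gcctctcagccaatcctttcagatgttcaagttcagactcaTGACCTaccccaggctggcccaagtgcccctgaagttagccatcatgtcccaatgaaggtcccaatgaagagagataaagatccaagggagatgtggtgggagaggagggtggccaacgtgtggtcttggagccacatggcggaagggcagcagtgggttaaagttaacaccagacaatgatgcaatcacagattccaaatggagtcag
Serpinf2: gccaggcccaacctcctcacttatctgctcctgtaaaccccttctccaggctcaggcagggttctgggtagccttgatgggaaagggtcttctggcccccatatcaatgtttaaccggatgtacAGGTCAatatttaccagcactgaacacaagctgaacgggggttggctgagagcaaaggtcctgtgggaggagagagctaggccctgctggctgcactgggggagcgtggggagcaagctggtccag
Both strands were searched, a match is a description and not a site, and shares refer to 32851 promoter windows of the same length. GTTAAT was found in 2 of the 10 promoters of clades A, C, D and F, those of Serpina1b and Serpina1c, against 6.43% of all windows. In the other clades it was in 2 of the 16, those of Serpinb8 and Serpini2. AGGTCA was found in 2 of the 10, Serpinf1 at bases -209 to -204 and Serpinf2 at bases -126 to -121 from the start, against 14.0% of all windows. In the other clades it was in 2 of the 16, Serpinb9c and Serpinb9g. The LXR arrangement of that hexamer, a direct repeat of AGGTCA with 4 bases between the copies, which contains AGGTCA as a part, was in 0 of the 10 and 0 of the 16, against 0.0152%. TTGCNNAA, a C/EBP pattern, was in 3 of the 10 (Serpina12, Serpina1b and Serpina5) against 9.56%, and TTCNNNGAA, a STAT pattern, in 0 of the 10 against 7.02%. Of the 16 others, TTGCNNAA was in 1 (Serpinb2) and TTCNNNGAA in 2 (Serpinb6a and Serpinb9c). The Serpina1b and Serpina1c windows were identical at 229 of 248 aligned bases, 92.3%.

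No Serpin probe set differed between groups at an adjusted p under 0.05 in any of 7 comparisons (limma, Benjamini-Hochberg adjustment over all 15838 probe sets tested). Of the 39 members, 28 probe sets for 23 genes passed the filter on low values and were tested: 14 for 11 genes in clades A, C, D and F, and 14 for 12 genes in the others. The array as a whole gave few calls as well. The share of all probe sets called was 0.00631% for the transgene in vehicle livers, 0% for T0901317 in GFP livers, 0.0253% for T0901317 in LXRα livers and 0% for the transgene in T0901317 livers. It was 0.568% for T0901317 averaged over both transgenes, 0.00631% for the transgene averaged over both treatments and 0.00631% for the interaction.

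At an unadjusted p under 0.05 the Serpin counts stayed near the background of the array in most comparisons. For the transgene in vehicle livers 2 of 28 passed, both higher, where 5.15% of all probe sets did and 2.27% were higher. For T0901317 in GFP livers 2 of 28 passed, both lower (background 13.2%, and 4.65% lower), and in LXRα livers 8 of 28, of which 2 were higher and 6 lower (background 13.2%, with 7.88% higher and 5.3% lower). Averaged over transgenes, 10 of 28 passed for T0901317, with 2 higher and 8 lower, where 23.2% of all probe sets did (12.7% higher and 10.5% lower). None of 28 passed for the transgene in T0901317 livers (2.24%) or averaged over treatments (2.66%), and 3 of 28 for the interaction (4.77%).

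By direction, the secreted clades were one-sided for T0901317. Averaged over transgenes, all 14 tested probe sets of clades A, C, D and F had a lower mean with T0901317, with a median log2 difference of -0.35 and a range of -2.49 to -0.13, where 54.3% of all tested probe sets were lower and their median was -0.04. Of the 14 tested probe sets of the other clades 8 were lower, with a median of -0.17. By array, the secreted probe sets lay below the mean of their own vehicle group in 12 and 10 of 14 on the GFP T0901317 arrays and in 12 and 13 of 14 on the LXRα T0901317 arrays. The whole array's medians on those arrays were between -0.07 and -0.02, and 8333 to 8939 of its 15838 tested probe sets lay below. Without GFP vehicle replicate 2 the count was 13 of 14 (median -0.40), and with the log2 β-actin ratio as covariate 12 of 14 (median -0.30); there the other clades had 10 of 14 lower and a median of -0.28. The genes of a class share arrays and are not independent, and none of the differences passed the test. Cell type markers had these differences in the same comparison: averaged over transgenes 7 of 11 hepatocyte markers were lower (median -0.12), and 8 of 11 endothelial (median 0.40) and 10 of 14 macrophage markers (median 0.17) were higher. Of the endothelial markers 1 was called, higher, where 0.568% of all probe sets were called. In LXRα livers 8 of 11 hepatocyte markers were lower (median -0.13) and 12 of 14 macrophage markers higher (median 0.89), while in GFP livers 10 of 14 macrophage markers were lower (median -0.51). The part of cell makeup in the class's direction was not tested.

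**Figure D1:**
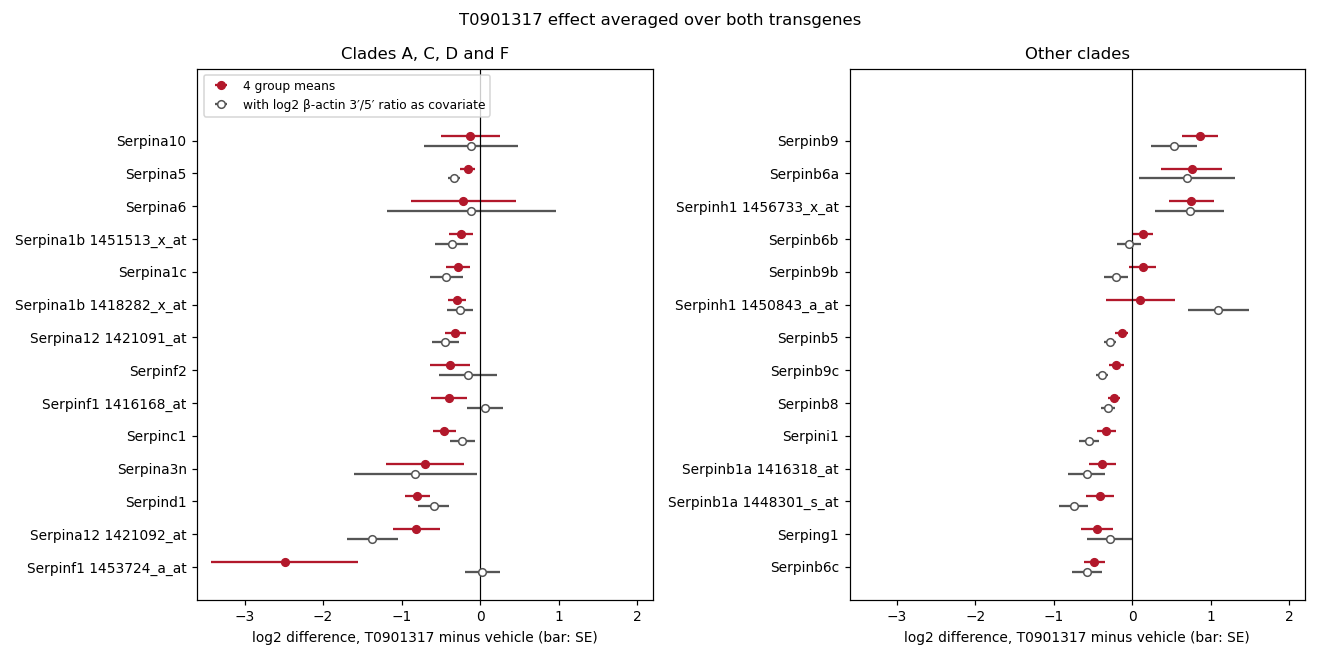
Log2 difference between T0901317 and vehicle averaged over both transgenes for the 28 tested Serpin probe sets, secreted clades on the left and other clades on the right; bars are standard errors. Filled points come from the fit of 4 group means and open points from the fit with the β-actin ratio as covariate; all 14 filled points on the left lie below 0, and the open point of Serpinf1 1453724_a_at moves to 0.027.

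Serpind1, heparin cofactor II, an inhibitor of thrombin that heparan and dermatan sulfate activate, had the smallest p-values of the family. Its intensity was 2749 and 2371 in GFP vehicle, 1847 and 1813 in GFP T0901317, 3489 and 2870 in LXRα vehicle, and 1665 and 1276 in LXRα T0901317 livers. All 4 T0901317 arrays read below all 4 vehicle arrays, as was the case for 4 of the 14 secreted probe sets, 2 of the 14 of the other clades and 8.44% of all probe sets. No Serpin probe set had the reverse order, against 8.21% of all. Among the 4 secreted ones, Serpinf1 1453724_a_at was apart only by a near tie. It read 1173.34 on LXRα T0901317 replicate 1 against 1173.56 on LXRα vehicle replicate 2. Averaged over transgenes the log2 difference of Serpind1 was -0.80 (SE 0.16, 1.74-fold lower) and the adjusted p of 0.0777 in limma missed the threshold. In LXRα livers it was -1.12 (SE 0.23, 2.17-fold lower, limma adjusted p = 0.176) and in GFP livers -0.48. Without GFP vehicle replicate 2 the averaged difference was -0.85. With the β-actin ratio as covariate it was -0.59 (SE 0.20, limma adjusted p = 0.152). Leaving out LXRα T0901317 replicate 1 gave -0.89 and an adjusted p of 0.0307, a call, but in that fit 1508 probe sets of the array were called.

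Serpinc1, antithrombin, the main plasma inhibitor of thrombin and factor Xa, gave 7167 and 7418 in GFP vehicle, 5315 and 4727 in GFP T0901317, 7785 and 8000 in LXRα vehicle, and 7062 and 5274 in LXRα T0901317 livers. Here too the T0901317 arrays lay below the vehicle arrays, LXRα T0901317 replicate 1 only just. The averaged log2 difference was -0.46 (SE 0.14, limma adjusted p = 0.15) and that in GFP livers -0.54 (SE 0.20, limma adjusted p = 0.337). Serpina10, which encodes the inhibitor that blocks factor Xa with protein Z, ranged from 860 to 2550 with no order by treatment. Serpina5, the protein C inhibitor, known in mice from the reproductive tract, read 9.26 to 12.6, close to the filter, which lies at an intensity of 10.3.

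The Serpina1 genes encode α1-antitrypsin, the main inhibitor of neutrophil elastase, and mice carry several near copies. Serpina1b, on probe set 1418282_x_at, gave 15668 and 14039 in GFP vehicle, 12488 and 11088 in GFP T0901317, 14491 and 14572 in LXRα vehicle, and 12421 and 12087 in LXRα T0901317 livers. The groups did not overlap between treatments, but the step was small: an averaged log2 difference of -0.29 (SE 0.11, 1.22-fold lower, limma adjusted p = 0.2). Serpina1b 1451513_x_at ran from 7506 to 11032 with treatments that overlapped (log2 difference -0.24). Serpina1c gave 7196 and 5302, then 5037 and 5193, then 6734 and 6987, and 5077 and 6088 in the same group order (log2 difference -0.29). Probe sets with the ending x_at hold probes that match several transcripts, so the Serpina1b values cannot be assigned to 1 copy. The Serpina1c values come from 1448680_at, which lacks that ending. The transgene differences of these Serpina1 probe sets in vehicle livers were -0.029 to 0.15, less than the replicates of GFP vehicle livers differed.

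**Figure D2:**
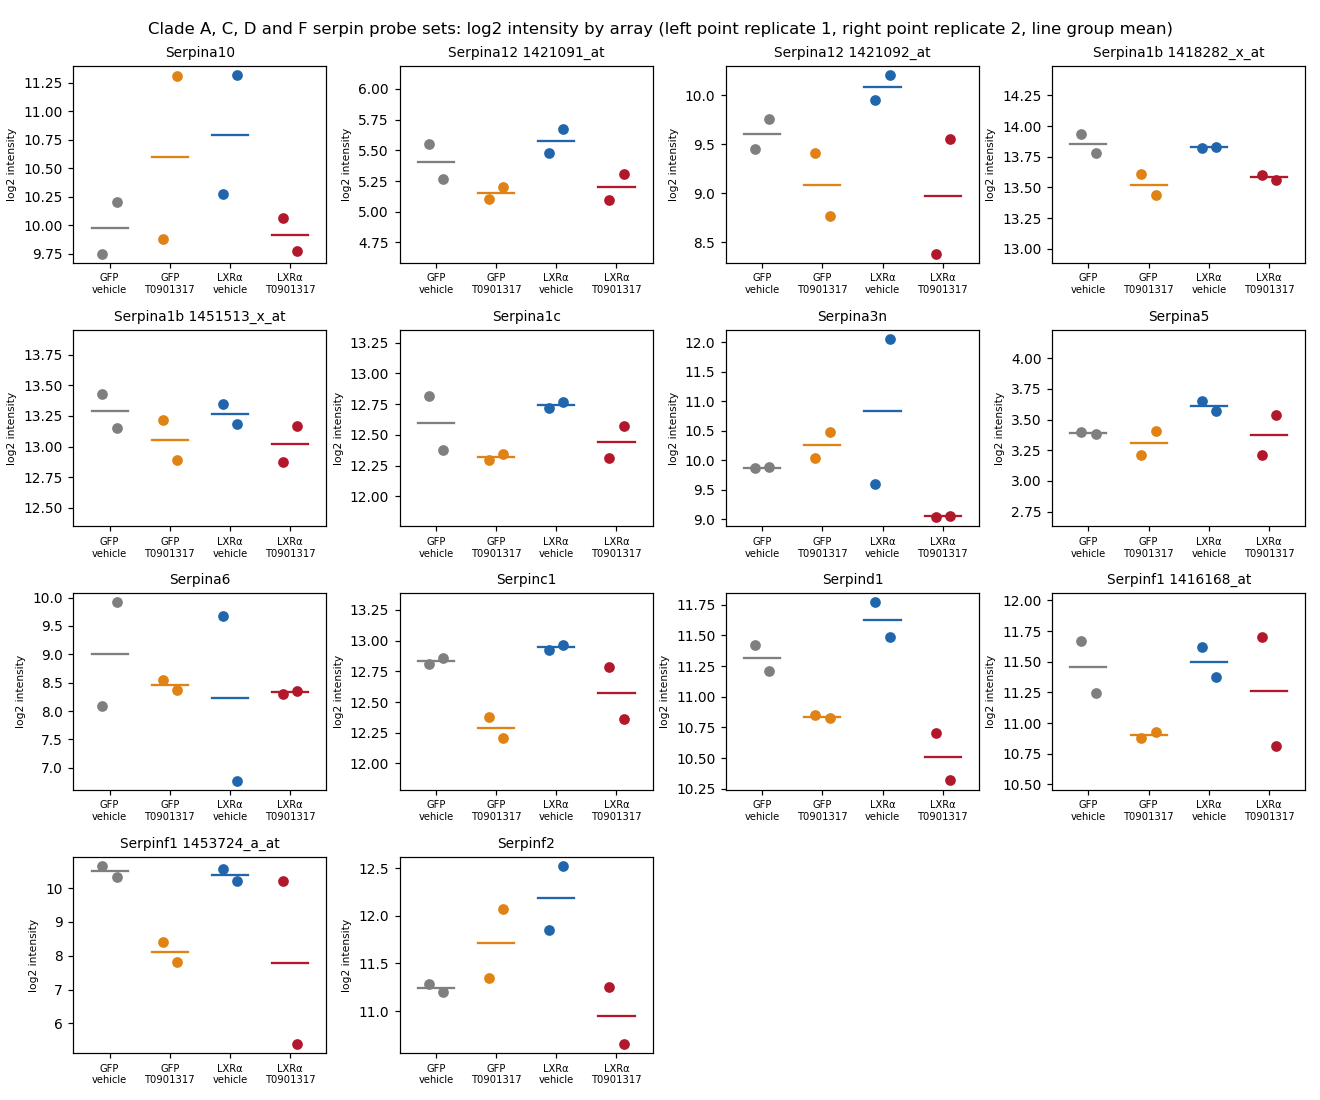
Log2 intensity of the 14 tested probe sets of clades A, C, D and F on each array, 1 panel per probe set, with 2 points per group (replicate 1 left, replicate 2 right) and the group mean as a line. Axes differ between panels; Serpind1 shows both T0901317 groups below both vehicle groups, and Serpina3n and Serpina6 show replicates of LXRα vehicle livers far apart.

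Serpina3n, the closest mouse relative of α1-antichymotrypsin and known as an acute phase gene, had replicates far apart in LXRα vehicle livers. It gave 937 and 943 in GFP vehicle, 1049 and 1420 in GFP T0901317, 778 and 4261 in LXRα vehicle, and 525 and 535 in LXRα T0901317 livers. The high value is 1 array, LXRα vehicle replicate 2, and the LXRα T0901317 arrays were the lowest of all 8. In LXRα livers the T0901317 log2 difference was -1.78 (SE 0.70, limma adjusted p = 0.355), and without LXRα vehicle replicate 2 it was -0.55. The transgene difference in vehicle livers turned with that array, from 0.95 to -0.27. Serpina3a read 6.69 to 7.98, at background, and was not tested.

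Serpinf2, α2-antiplasmin, the fast inhibitor of plasmin, gave 2498 and 2352 in GFP vehicle, 2606 and 4309 in GFP T0901317, 3691 and 5897 in LXRα vehicle, and 2435 and 1611 in LXRα T0901317 livers. The T0901317 difference had opposite signs in the 2 transgene groups, 0.47 in GFP livers and -1.24 (SE 0.36, limma adjusted p = 0.257) in LXRα livers. The interaction, the difference between these values, was -1.70 (SE 0.51, limma adjusted p = 1). The transgene difference in vehicle livers was 0.94 (SE 0.36, limma adjusted p = 0.904). Without LXRα vehicle replicate 2 the difference in LXRα livers was -0.90, and without GFP T0901317 replicate 2 that in GFP livers was 0.10.

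Serpina3n, Serpina10, Serpinf2 and Serping1, the C1 inhibitor of clade G, were all highest on LXRα vehicle replicate 2; these genes are set together here after their values were seen. The next highest array was GFP T0901317 replicate 2 for Serpina3n, Serpina10 and Serpinf2, with 1420, 2546 and 4309. A list of 25 measured acute phase genes other than serpins had its highest medians on the same arrays, 0.66 and 0.57 log2 units above the genes' 8-array means, against -0.47 to -0.02 on the others. Saa2, an acute phase apolipoprotein, read 19303 on LXRα vehicle replicate 2, 25535 on GFP T0901317 replicate 2 and 760 on GFP vehicle replicate 1. LXRα vehicle replicate 2 and GFP T0901317 replicate 2 belong to different groups. Some values also followed the groups: Serping1 read 4202 and 5979 in LXRα vehicle livers, above all other arrays. Serpina3n was lowest on both LXRα T0901317 arrays, at 525 and 535. The parts of single livers and of acute phase state in the serpin differences were not tested.

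**Figure D3:**
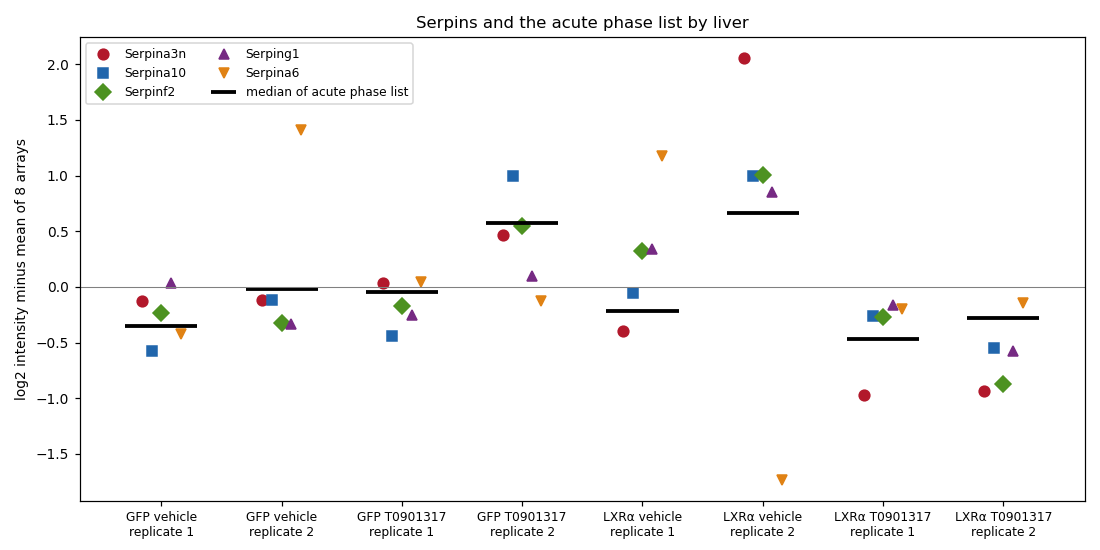
Log2 intensity minus the mean of the 8 arrays for Serpina3n, Serpina10, Serpinf2, Serping1 and Serpina6 (points) and the median of the acute phase list (black lines), by array. The list median is highest on LXRα vehicle replicate 2 (0.66) and GFP T0901317 replicate 2 (0.57), and Serpina6 is lowest on the former.

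Serping1 inhibits C1r, C1s, plasma kallikrein and factor XIIa. It gave 3387 and 2622 in GFP vehicle, 2778 and 3542 in GFP T0901317, 4202 and 5979 in LXRα vehicle, and 2947 and 2221 in LXRα T0901317 livers. Both LXRα vehicle arrays lay above the other 6. The transgene log2 difference in vehicle livers was 0.75 (SE 0.28, limma adjusted p = 0.904), the T0901317 difference in LXRα livers -0.97 (SE 0.28, limma adjusted p = 0.26) and the interaction -1.04 (SE 0.40, limma adjusted p = 1).

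Serpinf1, pigment epithelium derived factor, a secreted serpin that blocks vessel growth and inhibits no known protease, was measured by 2 probe sets whose profiles differed. Probe set 1416168_at gave 3261 and 2428 in GFP vehicle, 1884 and 1951 in GFP T0901317, 3141 and 2657 in LXRα vehicle, and 3333 and 1799 in LXRα T0901317 livers. Probe set 1453724_a_at gave 1623 and 1294, 341 and 224, 1509 and 1174, and 1173 and 41.8 in the same order. Its low arrays were the 3 with high β-actin ratios, and it was lowest where the ratio was highest, while LXRα T0901317 replicate 1, with a ratio of 2.75, read like LXRα vehicle replicate 2. The averaged T0901317 log2 difference of 1453724_a_at was -2.49 (SE 0.94, limma adjusted p = 0.19), and with the ratio as covariate it was 0.027. For 1416168_at it was -0.40, and 0.058 with the covariate. Without the 3 arrays of highest ratio the difference in LXRα livers was -0.18 and 0.21 for 1453724_a_at and 1416168_at. Without LXRα T0901317 replicate 1, the T0901317 array of lowest ratio, the difference of 1453724_a_at was -4.99 in LXRα livers and -3.69 averaged. That fit leaves 1 array in its group. Its averaged comparison called many more probe sets of the whole array, as given for Serpind1.

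**Figure D4:**
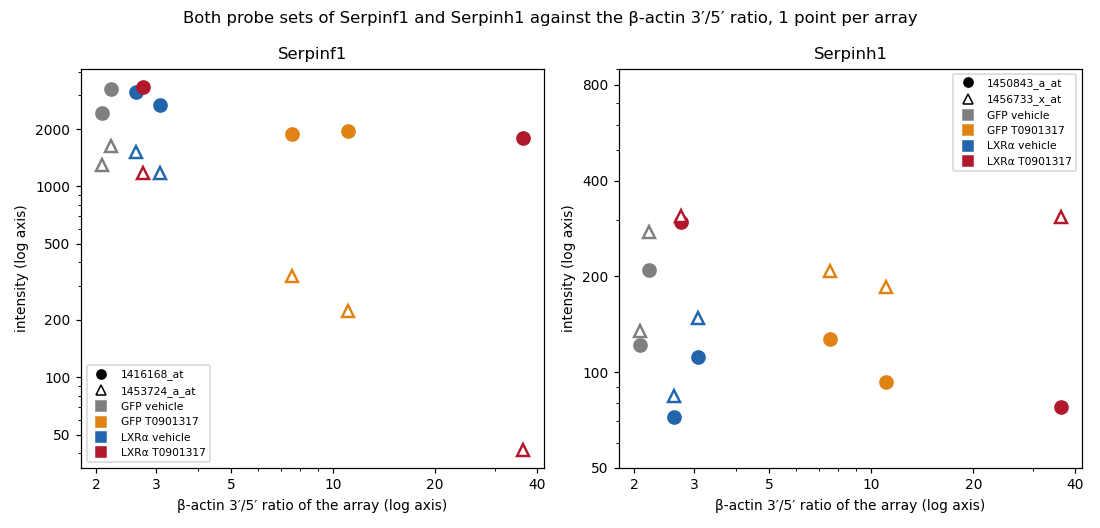
Intensity of the probe sets of Serpinf1 (left) and Serpinh1 (right) against the β-actin 3′/5′ ratio of the array, both axes logarithmic, 1 point per array, coloured by group. For Serpinf1 1453724_a_at the 3 arrays with ratios of 7.56, 11.04 and 36.3 read 341, 224 and 41.8, and the other 5 arrays read 1173 to 1623.

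Both carrier or adipokine members of clade A varied between livers. Serpina6, corticosteroid binding globulin, the plasma carrier of corticosterone, gave 271 and 967 in GFP vehicle, 373 and 333 in GFP T0901317, 821 and 109 in LXRα vehicle, and 317 and 328 in LXRα T0901317 livers. Replicates of each vehicle group lay far apart, and the T0901317 arrays lay close together between them. The averaged T0901317 log2 difference was -0.22, and it turned to 0.24 without GFP vehicle replicate 2, the array with pancreatic transcripts, with a range of -0.94 to 0.51 over all arrays left out in turn. Serpina12, vaspin, on probe set 1421092_at gave 700 and 866, 678 and 434, 992 and 1178, and 333 and 753 in the order used above. Its averaged log2 difference was -0.82 (SE 0.30, limma adjusted p = 0.183), and -1.37 (SE 0.33, limma adjusted p = 0.114) with the β-actin covariate; 1421091_at, at 34.1 to 51.1, gave -0.32. These genes and Serpina3n, Serpina10 and Serping1 are described by array because of values seen, not by the naming rule.

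Among the other clades Serpinh1, the collagen chaperone HSP47 of the endoplasmic reticulum, had the largest T0901317 difference in LXRα livers. Probe set 1456733_x_at gave 275 and 135 in GFP vehicle, 208 and 185 in GFP T0901317, 84.1 and 147 in LXRα vehicle, and 310 and 308 in LXRα T0901317 livers. Both arrays of the last group were the highest, and they did not overlap the LXRα vehicle arrays. Of all 15838 tested probe sets 3166 were likewise apart and higher with T0901317 in LXRα livers. The T0901317 log2 difference in LXRα livers was 1.47 (SE 0.40, 2.78-fold higher, limma adjusted p = 0.232), that in GFP livers 0.027, and the interaction 1.45 (SE 0.57, limma adjusted p = 1). Probe set 1450843_a_at gave 209 and 121, 127 and 92.9, 72.0 and 112, and 297 and 77.6, with a difference of 0.76 in LXRα livers that turned to -0.21 without LXRα T0901317 replicate 1 and was 1.73 without replicate 2. The probe sets parted on LXRα T0901317 replicate 2, the array with the ratio of 36.3, and with the ratio as covariate 1450843_a_at gave 1.68 (limma adjusted p = 0.156) and 1456733_x_at 1.45 (limma adjusted p = 0.197). Averaged over transgenes the difference of 1456733_x_at was 0.75 (SE 0.29, limma adjusted p = 0.193), and 0.49 without GFP vehicle replicate 2. Without that array its transgene difference in vehicle livers went from -0.79 to -1.31 (limma adjusted p = 0.972).

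Markers of stellate cells and matrix, the liver cells that make collagen, were lowest in LXRα vehicle livers. Both Serpinh1 probe sets had their lowest group mean there too. The median of the 13 markers measured lay 0.63 and 0.998 log2 units below the 8-array means on the LXRα vehicle arrays, against -0.12 to 0.78 on the others. Elsewhere the order differed. The marker median was highest on GFP T0901317 replicate 1, where Serpinh1 read 208 (1456733_x_at) and 127 (1450843_a_at). On GFP vehicle replicate 1 it read 275 and 209. The summed intensity of the markers was 1353 and 1704 in LXRα vehicle livers, 4032 and 4692 in LXRα T0901317 livers and 2489 to 4576 in GFP livers. It was highest on LXRα T0901317 replicate 2, where 1450843_a_at read 77.6. Averaged over transgenes 12 of the 13 were higher with T0901317, with a median of 0.92 and none called; Rgs5, a pericyte gene, had a difference in log2 intensity of 1.17 (SE 0.23, limma adjusted p = 0.0734). The part of these cells in the Serpinh1 values was not tested.

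**Figure D5:**
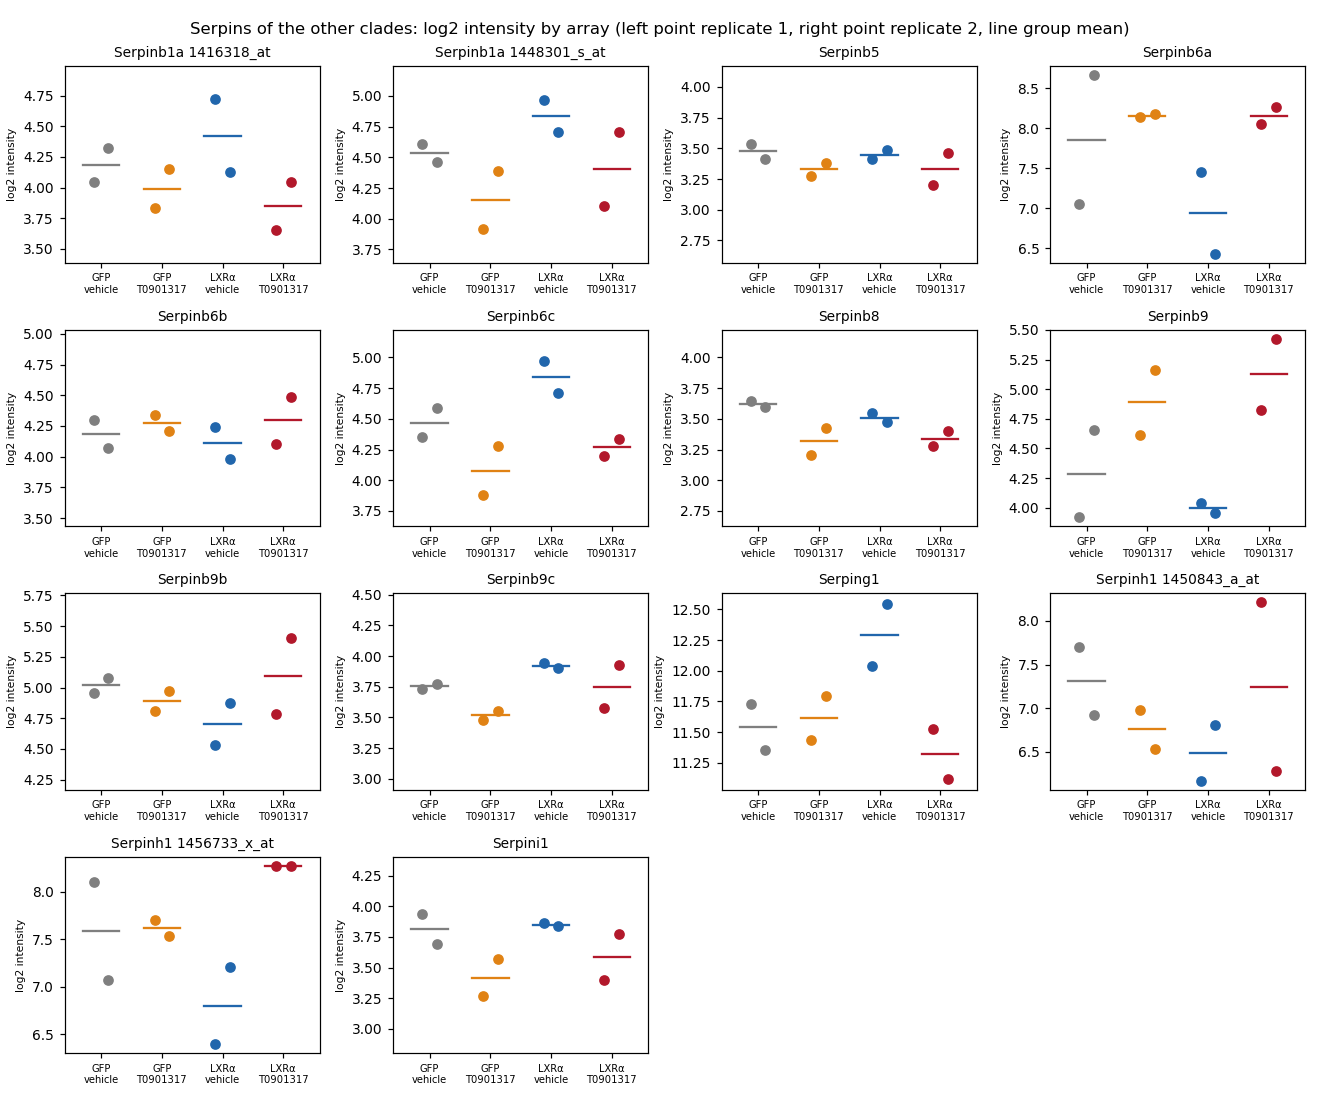
Log2 intensity of the 14 tested probe sets of the other clades on each array, drawn as for the secreted clades. Serpinb9 is higher with T0901317 in both transgene groups on average, and most clade B panels lie below a log2 intensity of 5.5, close to the filter at 3.36.

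Clade B serpins act inside cells, and 9 of the 14 genes were tested. Serpinb9, the inhibitor of granzyme B, gave 15.1 and 25.2 in GFP vehicle, 24.5 and 35.8 in GFP T0901317, 16.5 and 15.5 in LXRα vehicle, and 28.3 and 43.0 in LXRα T0901317 livers. The arrays of LXRα livers were apart by treatment, as were those of 3166 of all 15838 tested probe sets in the higher direction. The arrays of GFP livers overlapped. Its averaged log2 difference was 0.86 (SE 0.23, 1.82-fold higher, limma adjusted p = 0.113) and 1.05 without GFP vehicle replicate 2. With the β-actin covariate it stood at 0.53.

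Serpinb6a, a broad inhibitor of cytosolic proteases, gave 132 and 404, 283 and 288, 175 and 86.3, and 265 and 306, in the group order used for Serpind1. Its highest value was on the array with pancreatic transcripts and its lowest on the array with the lowest macrophage markers. The averaged log2 difference was 0.76 (limma adjusted p in the range of 0.175 to 0.53 when 1 array was left out), 1.16 without GFP vehicle replicate 2 and 0.35 without GFP vehicle replicate 1. In GFP livers it was 0.30, and -0.50 without the latter array. Serpinb6a is described by array because of these values.

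Serpinb6c gave 20.4 and 24.1, 14.7 and 19.4, 31.4 and 26.2, and 18.3 and 20.2 in the same order. All T0901317 arrays lay below all vehicle arrays, as did those of Serpinb8 (9.25 to 10.7 against 11.1 to 12.5), an inhibitor of furin-like proteases. The averaged log2 differences were -0.48 (SE 0.14, limma adjusted p = 0.125) and -0.24 (SE 0.080, limma adjusted p = 0.157). Array-wide shifts of dim probe sets are given beside these values. The 6788 probe sets of the array that failed the filter had medians 0.12 and 0.11 log2 units below their means on GFP T0901317 replicate 1 and LXRα T0901317 replicate 1, against -0.030 and 0.034 on the second replicates of those groups, and 8 and 3 of the 11 untested Serpin probe sets were lowest on the first replicates. Serpinb6c lay 0.59, 0.19, 0.65 and 0.50 log2 units below its vehicle means on the 4 T0901317 arrays (GFP first). Serpinb8, the dimmer gene, lay 0.41, 0.19, 0.23 and 0.11 log2 units below its own on the same arrays. The part of the shift in the values of both genes was not tested.

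The remaining tested members were dim, and none passed the test. Serpinb1a, an inhibitor of neutrophil proteases, ran from 12.6 to 26.3 on 1416318_at and 15.1 to 31.3 on 1448301_s_at, with averaged log2 differences of -0.38 and -0.41. Serpinb6b ran from 15.8 to 22.4, Serpinb9b from 23.2 to 42.3, Serpinb9c from 11.2 to 15.4 and Serpinb5, known as maspin, from 9.18 to 11.6. Serpini1, neuroserpin, an inhibitor of tissue plasminogen activator, ran from 9.62 to 15.3 on 1448443_at, with an averaged log2 difference of -0.33 (SE 0.12, limma adjusted p = 0.183).

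Of the 39 Serpin probe sets 11 were too dim to test. Serpinb11, Serpinb7, Serpinb9g and 2 of the 3 probe sets of Serpinb5 had values at or under the floor of 7.50, to which lower intensities were raised, on every array. Serpinb1b read 6.55 to 7.88, Serpinb2, plasminogen activator inhibitor 2, 7.28 to 9.49, the second probe set of Serpinb9c 6.61 to 8.52 and that of Serpini1 7.93 to 11.6. Serpini1 1416702_at, with a mean log2 value of 3.33, was just under the filter at 3.36, and Serpinb5 1421752_a_at, at 3.40, just over it. Serpini2, known as a serpin of the pancreas, read 10.9 on GFP vehicle replicate 2, the array with pancreatic transcripts, and 6.82 to 8.59 elsewhere.

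The proteases that serpins inhibit did not pass the test either. Of 28 listed, 25 were measured and 21 tested; none was called, and averaged over transgenes 4 were higher and 17 lower with T0901317, with a median of -0.22 against -0.04 for the array. At an unadjusted p under 0.05, where 12.7% of all probe sets were higher and 10.5% lower, 1 of the 21 was higher, Furin, a proprotein convertase (log2 difference 0.96, SE 0.20, limma adjusted p = 0.0806), and 5 were lower, among them Masp2 of the lectin complement pathway (-0.67) and F11, clotting factor XI (-1.39). In LXRα livers 18 of 21 were lower with a median of -0.75, and in vehicle livers 19 of 21 were higher with the transgene with a median of 0.42. Both comparisons share the LXRα vehicle arrays. Plg, plasminogen, the target of Serpinf2 once activated, had a log2 difference of -0.82 in LXRα livers (SE 0.26, limma adjusted p = 0.285).

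Inhibitors outside the family and partners of serpins come next. Of 22 tested inhibitors outside the family none was called, and 16 were lower averaged over transgenes with a median of -0.10; in LXRα livers Mug1, a murinoglobulin of the α2-macroglobulin family, had a difference in log2 intensity of -1.06 (SE 0.25, limma adjusted p = 0.192). Of 11 tested cofactors, receptors and serpin-fold genes none was called. Agt, angiotensinogen, which has the serpin fold but another symbol, gave 2173 and 2313 in GFP vehicle, 1341 and 1180 in GFP T0901317, 2154 and 2792 in LXRα vehicle, and 1416 and 832 in LXRα T0901317 livers. All its T0901317 arrays lay below its vehicle arrays, with an averaged log2 difference of -1.005 (SE 0.21, limma adjusted p = 0.0806).

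Factors of the endoplasmic reticulum that fold secreted proteins or clear misfolded ones had differences of both signs. Of 16 tested, none was called, 7 were higher and 9 lower, with a median of -0.08. Those with the smallest p were Pdia4, a protein disulfide isomerase (-0.77, limma adjusted p = 0.0947), Edem1, which sorts misfolded glycoproteins for degradation (0.60, limma adjusted p = 0.125), and Pdia3 (-1.62, limma adjusted p = 0.129). Pdia3 was lowest, at 790 and 364, on the arrays with the β-actin ratios of 11.04 and 36.3.

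Plasma carriers and acute phase genes served as neighbours of the secreted serpins in hepatocytes. Of 10 plasma carriers tested 7 were lower averaged over transgenes, with a median of -0.11 and none called; Alb had -0.20 (SE 0.13, limma adjusted p = 0.331). Of 25 acute phase genes 15 were lower, with a median of -0.04 and none called. In LXRα livers 24 of the 25 were lower with a median of -0.71, and in GFP livers 20 of the 25 were higher with a median of 0.57, again none called. Of 18 growth hormone and male liver genes 1 was called, Hsd3b5, a steroid dehydrogenase, lower with T0901317 averaged over transgenes (limma adjusted p = 0.0166), where 0.568% of all probe sets were called, and the list's median was -0.41. Hsd3b5 read 846 and 1079 in LXRα vehicle livers and 5.75 to 14.97 on the other 6 arrays. It was therefore also called for the transgene in vehicle livers and averaged over treatments (higher, limma adjusted p = 0.00195 and 0.0139), for T0901317 in LXRα livers (lower, limma adjusted p = 0.00307) and for the interaction (limma adjusted p = 0.0314). Of 14 glucocorticoid targets none was called, 7 were higher and 7 lower, with a median of -0.02.

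For the LXRα transgene itself the directions were mixed. In vehicle livers 10 of 14 secreted probe sets were higher with LXRα, with a median log2 difference of 0.16 against 0.05 for the array, and 6 of the 14 of the other clades, with a median of -0.05. Of all 15838 tested probe sets 9465 were higher there. In T0901317 livers 6 of the 14 secreted probe sets were higher, with a median of -0.07, and 11 of the 14 others, with a median of 0.18. There 9103 of all tested probe sets were higher, with a median of 0.03. Averaged over treatments the differences of the 28 probe sets ran from -0.46 for Serpinb6a to 0.28 for Serpinb6c and Serpinb1a 1448301_s_at. The other Serpinb1a probe set, 1416318_at, gave a smaller difference, of -0.098 to 0.20 when each array was left out in turn. The smallest adjusted p of a Serpin probe set was 0.904 for the transgene in vehicle livers and 1 for the interaction in limma.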

How the data were processed

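In all, 8 samples of mouse liver RNA were measured on Affymetrix arrays, 1 array per sample. A further allele that all groups share is not reported here. The authors deposited 1 intensity per probe set and array, linear and positive by their range. How they were summarised and scaled is not given in the sources used here. No sample column was left unused. Symbols came from the platform annotation; RefSeq keeps all 30 Serpin symbols. The 64 control probe sets stayed out of the tests.

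Intensities were raised to a floor of 7.50 (20th percentile of positive values) and log2-transformed, and the 15838 probe sets with a mean above 3.36 (30th percentile) were tested. One limma 3.58.1 fit (R 4.3.3) of 4 group means on all 8 arrays used eBayes with an intensity trend, with 4 residual and 2.93 prior degrees of freedom. It gave 7 contrasts with Benjamini-Hochberg adjustment over all tested probe sets, called at an adjusted p under 0.05. SE are those of limma. A gene with several probe sets is described by each, and lists by counts and medians with 1 probe set per gene. Fitting was tested on simulated data.

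Array values are given for members at an adjusted p under 0.05 or an unadjusted p under 0.01 in any contrast, for members with probe sets of opposite sign at an unadjusted p under 0.05 (none) and for the 6 brightest genes of clades A, C, D and F. Values by array of Serpina3n, Serpina6, Serpina10, Serpina12, Serping1, Serpinb6a and Serpini2 were added after they were seen. Up to 4 members per list are named. The members, 8 pathway and 11 marker lists and the alternatives were chosen with earlier results of these data known. Marker lists not described (lymphocytes, neutrophils, platelets, cholangiocytes, mesothelium, erythroid cells) gave no call. Endothelium is described only for T0901317 averaged over transgenes, its only comparison with a call (1, higher). Alternatives were other scalings, floors, filters and variance models, a replicate block, fits on only the groups compared, fits without each array, the β-actin ratio as a covariate or its 3 highest arrays left out, and an adjusted p under 0.10.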

Additional observations from a re-analysis of the deposited data

How the results depend on the processing

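The count of Serpin probe sets called was 0 in all 7 comparisons and stayed 0 in 136 recomputations of these counts under an alternative. The exceptions were leaving out LXRα T0901317 replicate 1, the T0901317 array of lowest β-actin ratio, which gave 1 call for T0901317 in LXRα livers (Serpinf1 1453724_a_at) and 2 averaged over transgenes (Serpinf1 1453724_a_at and Serpind1), and an adjusted p under 0.10, which gave 1 (Serpind1, averaged). Leaving out each array in turn thus gave 0 to 1 and 0 to 2 calls in those comparisons. The 25 log2 differences at an unadjusted p under 0.05 in the limma fit were recomputed under the alternatives. Of these recomputations 471 kept direction and side of the threshold, and 1 reversed. That was the T0901317 difference of Serpinf1 1453724_a_at averaged over transgenes, which went from -2.49 to 0.027 once the β-actin ratio was a covariate. Differences at a larger p were not in this count. Among them, those of Serpina6 averaged over transgenes and of Serpinb6a in GFP livers changed sign without 1 array. The labels give replicate numbers without saying that they pair mice, and deviations of same-numbered arrays correlated at -0.14 to 0.25 between groups; with the replicate block the count of Serpin calls was 0 in every comparison, and all calls of T0901317 averaged over transgenes went from 90 to 17. Without the 3 arrays of highest ratio no fit of GFP T0901317 livers could be made. Where 1 array was left out, the lone array of its group was taken to vary as much as the arrays of other groups. Under no filter, quantile normalization or centring on array medians all 14 secreted probe sets kept a lower averaged mean. Values near the floor of 7.50, most of clade B, carry little signal over background.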

Other observations

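A set of 3 probe sets carried several symbols with Serpin genes among them and so were no members. The probe set for Serpina1e, Serpina1c and Serpina1b (1449321_x_at) gave 620 and 507 in GFP vehicle, 316 and 209 in GFP T0901317, 396 and 849 in LXRα vehicle, and 248 and 155 in LXRα T0901317 livers. All its T0901317 arrays lay below its vehicle arrays, as was the case for 8.44% of all probe sets tested, and LXRα T0901317 replicate 1, with a β-actin ratio of 2.75, was among the low arrays. It was not tested as a member. The probe set for Serpina1d and Serpina1a (1420553_x_at) gave 14949 and 10732, 12792 and 11739, 9757 and 13818, and 9171 and 8325 in the same order, with treatments that overlapped. The probe set for Serpinb9h, Serpinb9g, Serpinb9e and Serpinb9f (1418423_s_at) read 16.7 to 20.1. The promoters of Serpina1a and Serpina1d were identical to that of Serpina1b at 93.8% and 93.7% of aligned bases.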
